A study of Mus musculus with 9 samples.

Results

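p53, encoded by Trp53, and 9 genes that it switches on directly were followed through a mouse lung carcinoma line and a pair of its single-cell subclones. The 10 genes were chosen by name, for their place in the p53 pathway and with earlier results of these data known, and make up 10 of the 15768 genes in the expression table. They are Trp53 itself, its feedback inhibitor Mdm2, the growth arrest and survival-control targets Cdkn1a, Ccng1, Btg2, Trp53inp1 and Phlda3, and the cell death targets Pmaip1, Bbc3 and Bax. SCC2 and SCC1 are sublines that were each grown from 1 LLC1 cell by limiting dilution, so each stands for 1 clone, and LLC1 is the Lewis lung carcinoma line they came from. All 3 lines were labelled wild type and untreated, were kept in DMEM with serum, and gave 3 RNA-seq libraries each. The labels give 5 to 8 passages for SCC2 and SCC1 and no passage number for LLC1. Whether the 3 libraries of each line were made from different cultures is not stated in the labels. The p-values therefore cover the spread between these libraries alone, which may be technical.

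p53 is a transcription factor that is held at a low level in unstressed cells, mainly because the ubiquitin ligase Mdm2 marks it for destruction. DNA damage or oncogene activity stabilises it, and it then binds a pair of decamers near its targets and raises their transcription, Mdm2 included, which closes a feedback loop. The pathway is among the most often disabled in lung cancer, and the level of Trp53 mRNA is a poor guide to the amount of active protein.

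The promoters show which of the genes searched carry the p53 consensus close to their start. RefSeq windows of GRCm38.p6, 250 bases before to 50 bases after a start, were searched for 2 copies of the p53 consensus decamer, 0 to 13 bases apart and with at most 3 mismatches over both, the C and G of each core being required. The consensus reads the same on both strands. Only 8 of the 10 genes were searched, in 11 windows. A match was found for 5 of these genes, in 6 of the 11 windows. The genes left out are named under the processing of the data, and whether they carry a match was not tested. Such a match was found in 15.6% of all 32851 windows, one with at most 2 mismatches in 4.09%, one with at most 1 in 0.627% and one with none in 0.0731%. Each match is shown 5′ to 3′ along its gene, with the decamers in capitals, because these are the letters that p53 could read.
Cdkn1a: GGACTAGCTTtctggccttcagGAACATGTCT
Ccng1: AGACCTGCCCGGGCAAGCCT
Bax: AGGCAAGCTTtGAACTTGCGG
Trp53: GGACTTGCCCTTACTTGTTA
Bbc3: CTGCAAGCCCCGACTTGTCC

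The Cdkn1a match had 0 mismatches, with 12 bases between its decamers, and lay 73 to 42 bases before the upstream of its searched starts. The Ccng1 match had 1 mismatch at 195 to 176 bases before the start, and the Bax match had 2 at 201 to 181 bases before it. Those of Trp53, at 75 to 56 bases, and Bbc3, at 97 to 78 bases, had 3 mismatches each, a number that is common among all windows. A second Bbc3 window also held a match with 3 mismatches. A further Bbc3 window and another Cdkn1a window, at a start further downstream, held none within the limit. The windows of Btg2, Mdm2 and Phlda3 held none either. When the decamers could be at most 1 base apart, a limit added after these matches had been seen, the same 5 genes had a match. It was found in 5 of their 11 windows, against 2.82% of all windows. The Cdkn1a match became the adjacent pair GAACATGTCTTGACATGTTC with 1 mismatch. A match describes the letters of a window and does not show that p53 binds there. Ccng1 and Bbc3 are shown with their whole windows, since the RNA of one differed strongly between the subclones and that of the other did not. The pair was thus picked by its RNA. Btg2, without a match, changed by -1.78 in SCC2 against SCC1, further than Ccng1 at -1.2. Whether a match goes with the change of the RNA was not tested. The Ccng1 window is chr11:40755237-40755536 on the minus strand, and the Bbc3 window is chr7:16309333-16309632 on the plus strand.
Ccng1: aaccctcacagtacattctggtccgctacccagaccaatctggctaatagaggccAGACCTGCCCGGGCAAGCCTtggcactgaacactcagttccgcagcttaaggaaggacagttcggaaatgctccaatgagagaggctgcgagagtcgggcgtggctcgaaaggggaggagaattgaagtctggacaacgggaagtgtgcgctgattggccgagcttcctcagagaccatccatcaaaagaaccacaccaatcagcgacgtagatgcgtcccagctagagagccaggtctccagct
Bbc3: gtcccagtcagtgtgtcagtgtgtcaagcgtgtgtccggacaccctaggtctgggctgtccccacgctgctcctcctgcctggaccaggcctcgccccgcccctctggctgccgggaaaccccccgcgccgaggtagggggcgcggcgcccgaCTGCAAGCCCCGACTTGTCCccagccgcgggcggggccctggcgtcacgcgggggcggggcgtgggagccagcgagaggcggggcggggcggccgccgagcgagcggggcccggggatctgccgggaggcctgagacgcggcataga

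Expression was deposited as FPKM, fragments scaled by gene length and by library size, which allows levels to be compared between genes per length. The values corresponded to 17094808 to 19398657 fragments per library, and for the median gene a count of 3 fragments was worth 0.0438 to 0.0497 FPKM. Changes are differences of log2(FPKM + 1), which understate the change of low genes, and a gene was called at a Benjamini-Hochberg adjusted p under 0.05 in limma, fitted to all 9 libraries and 10519 genes. Of the markers of a lung carcinoma, Krt8 and Krt18 summed to 231 to 232 FPKM in SCC2, 445 to 455 in SCC1 and 332 to 341 in LLC1, while Cdh1, Sftpc and Nkx2-1 were at or near 0 in every library. Macrophage and leukocyte markers, of which 6 of 10 had values, summed to 18.8 to 19.3 FPKM in SCC2, 29.2 to 33.3 in SCC1 and 15.9 to 17.4 in LLC1. The defining macrophage markers Csf1r and Lyz2 were near 0 in all 3 lines, whereas Cd68 averaged 3.05 ± 0.236 FPKM in SCC2, 9.14 ± 1.1 in SCC1 and 4.11 ± 0.351 in LLC1 (SD, n = 3 each). Cd14 averaged 15.6 FPKM in SCC2, 18.4 in SCC1 and 12 in LLC1. Cd68 and Cd14 were called higher in SCC1 than in LLC1, where 39.2% of all tested genes were called higher. Mrc1 averaged 0.235 FPKM in SCC2, 2.11 in SCC1 and 0.267 in LLC1. Ly6g averaged 1.14 FPKM in SCC1 and was at or near 0 in both other lines. Mrc1 and Ly6g passed the filter through SCC1 alone, so their calls as higher in SCC1 give no support. Ptprc, Adgre1, Itgam and Cd163 of that list were not analysed here. Fibroblast markers summed to 692 to 714 FPKM in SCC2, 258 to 268 in SCC1 and 572 to 599 in LLC1, but Col3a1 alone set this order. Pdgfra averaged 3.04 FPKM in SCC2, 3.35 in SCC1 and 5.18 in LLC1. Dcn averaged 2.1 FPKM in SCC2, 2.34 in SCC1 and 3.02 in LLC1, so both were highest in LLC1. Col1a1, Pdgfrb and Lum averaged under 1 FPKM in every line. Endothelial and lymphocyte markers were near 0. Krt19 averaged 0.333 FPKM in SCC2, 1.27 in SCC1 and 1.4 in LLC1, and was not called in SCC1 against LLC1 (-0.08, limma adjusted p 0.247). The sum of Krt8 and Krt18 and that of the macrophage markers were highest in SCC1, as were the means of all 10 genes. For Bbc3 the SCC1 and SCC2 libraries overlapped. The part of these markers in the results was not tested. Fewer cells of a type and less RNA per cell cannot be told apart in these bulk libraries.

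All 10 genes passed the filter on low values, and the order of the lines was the same for most of them, with SCC1 highest. In SCC1 against LLC1, 10 of 10 genes rose, where 70.1% of all tested genes were called and 39.2% were called higher. In SCC2 against SCC1, 9 of 10 fell, where 76.3% of all genes were called and 39.4% were called lower. In SCC2 against LLC1, 2 rose, 6 fell and 2 were not called, where 67.6% of all genes were called, 34.7% higher and 32.9% lower. With most genes called in each comparison, being called says little about any 1 gene, and the direction and size carry the description. All SCC1 libraries lay above all LLC1 libraries for 10 of 10 genes, where 72.3% of all genes did not overlap in either direction and 40.4% lay above. All SCC2 libraries lay below all SCC1 libraries for 9 of 10, where 77.9% did not overlap and 39.9% lay below. SCC2 and LLC1 libraries did not overlap for 8 of 10, where 70.7% of all genes did not. The median change of the 10 genes was -0.589 in SCC2 against SCC1, -0.125 in SCC2 against LLC1 and 0.559 in SCC1 against LLC1, beside -0.003, 0.008 and 0.033 over all genes. The comparisons share libraries, so they are not independent of each other.

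**Figure D1:**
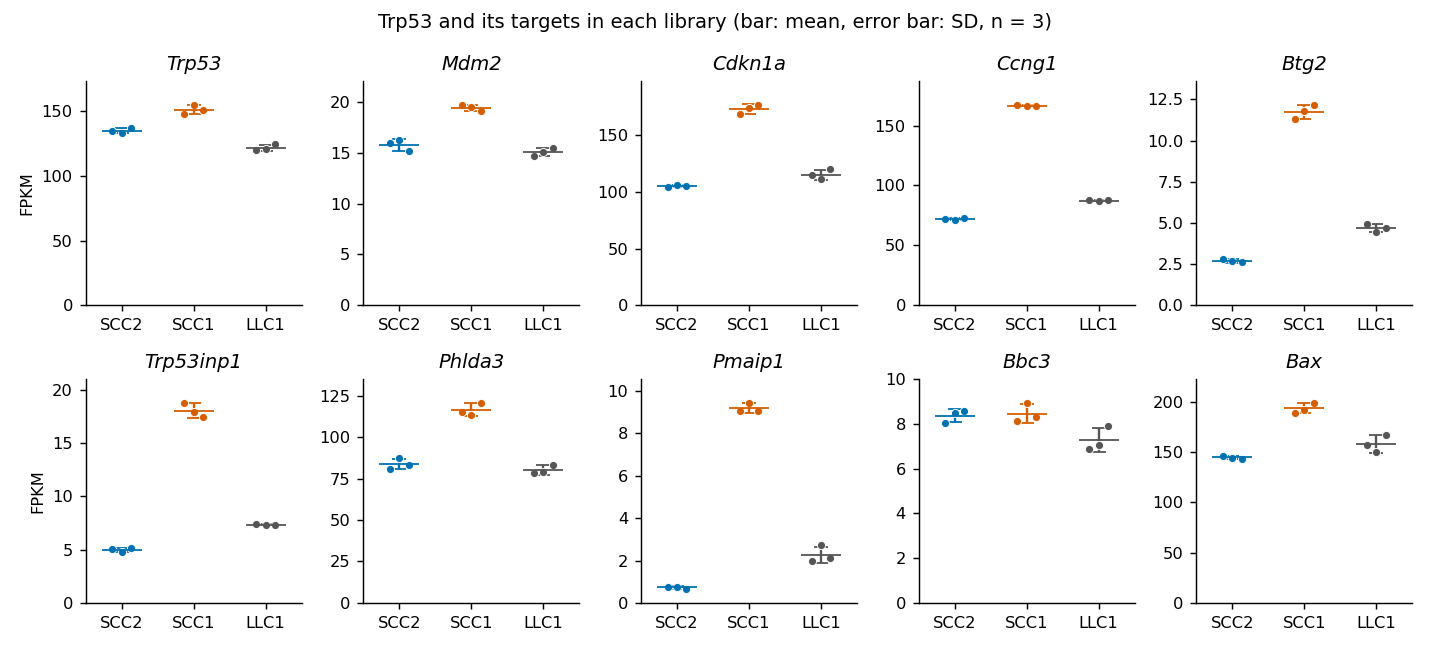
Level of each gene in FPKM (vertical axes, each from 0) in the 3 libraries of SCC2, SCC1 and LLC1; points are libraries, wide bars are means and error bars are SDs (n = 3). For 9 of the genes all SCC1 libraries stand above all others, and Bbc3 is the one whose SCC2 and SCC1 libraries overlap.

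Trp53 mRNA differed little between the lines. It was at 135, 133 and 137 FPKM in SCC2, 148, 155 and 151 FPKM in SCC1 and 120, 121 and 124 FPKM in LLC1. The 3 lines did not overlap, with SCC1 highest and LLC1 lowest. The log2 change was 0.31 (SE 0.0216) in SCC1 against LLC1, with a limma adjusted p of 1.53e-07, 0.15 in SCC2 against LLC1 (adjusted p 8.66e-05) and -0.16 in SCC2 against SCC1 (adjusted p 2.47e-05). Trp53 lies on chromosome 11, whose genes had median changes of 0.167 in SCC1 against LLC1 and -0.214 in SCC2 against SCC1. With the median change of each chromosome removed, Trp53 changed by 0.13 in SCC1 against LLC1 and by 0.05 in SCC2 against SCC1, the reverse of its direction before (limma adjusted p 0.0433). A shift shared by the genes of a chromosome and a change of Trp53 alone cannot be told apart in the unadjusted values.

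Mdm2, the ubiquitin ligase that p53 induces and that degrades p53, was at 16.0, 16.3 and 15.2 FPKM in SCC2, 19.7, 19.5 and 19.2 FPKM in SCC1 and 14.7, 15.1 and 15.5 FPKM in LLC1. SCC1 stood above both other lines, which overlapped. Mdm2 rose by 0.35 in SCC1 against LLC1 (limma adjusted p 1.94e-06) and fell by 0.28 in SCC2 against SCC1 (adjusted p 7.34e-06). In SCC2 against LLC1 the difference was 0.06, with a 95% interval of -0.008 to 0.135 and an adjusted p of 0.104. It passed the threshold without SCC2 replicate 3 (0.09, adjusted p 0.0272) and in limma-voom on recovered fragments (0.07, adjusted p 0.0368). With chromosome medians removed, Mdm2 changed by -0.56 in SCC2 against SCC1, by -0.02 in SCC2 against LLC1 (adjusted p 0.544) and by 0.54 in SCC1 against LLC1. Mdm4, the Mdm2 relative that holds p53 inactive, averaged 25.0 ± 0.778 FPKM in SCC2, 35.7 ± 0.608 in SCC1 and 28.4 ± 0.933 in LLC1 (SD, n = 3 each).

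Cdkn1a encodes p21, the inhibitor of cyclin-dependent kinases through which p53 stops the cell cycle. It was at 105, 106 and 106 FPKM in SCC2, 168, 174 and 177 FPKM in SCC1 and 115, 111 and 120 FPKM in LLC1, so SCC1 stood well above the rest and SCC2 just below LLC1. Its mean was 1.5-fold higher in SCC1 than in LLC1 (log2 change 0.58, SE 0.0269, limma adjusted p 4.79e-09) and 1.64-fold lower in SCC2 than in SCC1 (log2 change -0.71, adjusted p 4.97e-10). The fall in SCC2 against LLC1 was small (-0.12, adjusted p 0.00146), and it was 0.01 (adjusted p 0.868) with the chromosome medians removed. An exon of Cdkn1a shares 273 bases with a gene on the opposite strand in GENCODE M21, and no source used here says whether reads were counted by strand.

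Ccng1 encodes cyclin G1, a p53 target that recruits a phosphatase to Mdm2. It was at 72.4, 70.9 and 73.0 FPKM in SCC2, 167, 166 and 167 FPKM in SCC1 and 87.5, 86.7 and 87.6 FPKM in LLC1. The libraries of each line lay close together and no lines overlapped. Its mean was 2.31-fold lower in SCC2 than in SCC1 (log2 change -1.2, SE 0.017, limma adjusted p 1.53e-13), 1.21-fold lower in SCC2 than in LLC1 (-0.27, adjusted p 7.63e-08) and 1.91-fold higher in SCC1 than in LLC1 (0.93, adjusted p 3.68e-12). This is the gene whose promoter window is printed above with a match of 1 mismatch.

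Btg2, an antiproliferative protein that recruits the mRNA deadenylation machinery, and Trp53inp1, a stress protein that promotes p53 activity and autophagy, moved further at lower levels. Btg2 was at 2.83, 2.66 and 2.62 FPKM in SCC2, 11.3, 11.8 and 12.2 FPKM in SCC1 and 4.95, 4.46 and 4.68 FPKM in LLC1. Trp53inp1 was at 5.02, 4.78 and 5.17 FPKM in SCC2, 18.8, 17.9 and 17.4 FPKM in SCC1 and 7.43, 7.29 and 7.32 FPKM in LLC1. For both genes the 3 lines were apart, with SCC1 highest and SCC2 lowest. The mean of Btg2 was 4.34-fold lower in SCC2 than in SCC1 (log2 change -1.78, limma adjusted p 1.58e-11) and that of Trp53inp1 3.61-fold lower (-1.67, adjusted p 6.91e-12). In SCC2 against LLC1, Btg2 changed by -0.62 (adjusted p 2.36e-07) and Trp53inp1 by -0.48 (adjusted p 4.61e-07). SCC1 was higher than LLC1 by 1.16 for Btg2 (adjusted p 1.05e-09) and by 1.19 for Trp53inp1 (adjusted p 1.94e-10). Trp53inp1 lies on chromosome 4, whose genes had a median change of -0.332 in SCC1 against LLC1, the opposite direction to its own.

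Phlda3, which blocks the survival kinase Akt at the membrane, was at 80.9, 87.2 and 83.2 FPKM in SCC2, 115, 113 and 121 FPKM in SCC1 and 78.0, 78.8 and 83.3 FPKM in LLC1. SCC1 was apart from both other lines, which overlapped. Phlda3 rose by 0.54 in SCC1 against LLC1 (limma adjusted p 6.12e-08) and fell by 0.47 in SCC2 against SCC1 (adjusted p 1.02e-07). In SCC2 against LLC1 the difference was 0.06, with a 95% interval of -0.009 to 0.138 and an adjusted p of 0.11. It passed the threshold without SCC2 replicate 1 (0.09, adjusted p 0.0488), without LLC1 replicate 3 (0.09, adjusted p 0.0314) and in limma-voom (0.07, adjusted p 0.0462), and it was -0.07 (adjusted p 0.0927) with chromosome medians removed.

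Pmaip1 differed most among the 10 genes. It encodes Noxa, a BH3-only protein that frees the death effectors by binding Mcl1. It was at 0.770, 0.767 and 0.653 FPKM in SCC2, from 37, 38 and 32 fragments, at 9.04, 9.44 and 9.07 FPKM in SCC1, and at 2.00, 2.71 and 2.11 FPKM in LLC1. The lines did not overlap. Its mean was 12.6-fold lower in SCC2 than in SCC1 (log2 change -2.56, SE 0.0716, limma adjusted p 3.78e-11), 3.12-fold lower in SCC2 than in LLC1 (-0.91, adjusted p 4.92e-07) and 4.04-fold higher in SCC1 than in LLC1 (1.64, adjusted p 2.94e-09). Ranked by change in SCC1 against LLC1, Pmaip1 was number 6 from the highest of the 10519 genes. It lies on chromosome 18, whose genes had a median change of -0.456 in SCC2 against SCC1, and with chromosome medians removed its change there was -2.09.

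Bbc3 and Bax, which act beside Pmaip1 in cell death, changed far less. Bbc3 encodes Puma, a BH3-only protein that binds all the prosurvival Bcl2 proteins, and was at 8.06, 8.49 and 8.58 FPKM in SCC2, 8.13, 8.95 and 8.33 FPKM in SCC1 and 6.87, 7.08 and 7.90 FPKM in LLC1. Both subclones stood above LLC1, by 0.18 in SCC2 (limma adjusted p 0.00773) and by 0.19 in SCC1 (adjusted p 0.0048). Between SCC2 and SCC1 the difference was -0.01, with a 95% interval of -0.125 to 0.097 and an adjusted p of 0.814, and their libraries overlapped. Bax, the effector that opens the outer mitochondrial membrane, was at 146, 145 and 143 FPKM in SCC2, 189.5, 192 and 199 FPKM in SCC1 and 157, 149.9 and 168 FPKM in LLC1. SCC1 was apart from both other lines and SCC2 lay just below LLC1. Bax fell by 0.42 in SCC2 against SCC1 (adjusted p 3.32e-07) and by 0.12 in SCC2 against LLC1 (adjusted p 0.00652), and rose by 0.29 in SCC1 against LLC1 (adjusted p 1.1e-05). Bax shares 192 exon bases with Gm45808 on the same strand in GENCODE M21, so its level is uncertain to that extent.

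**Figure D2:**
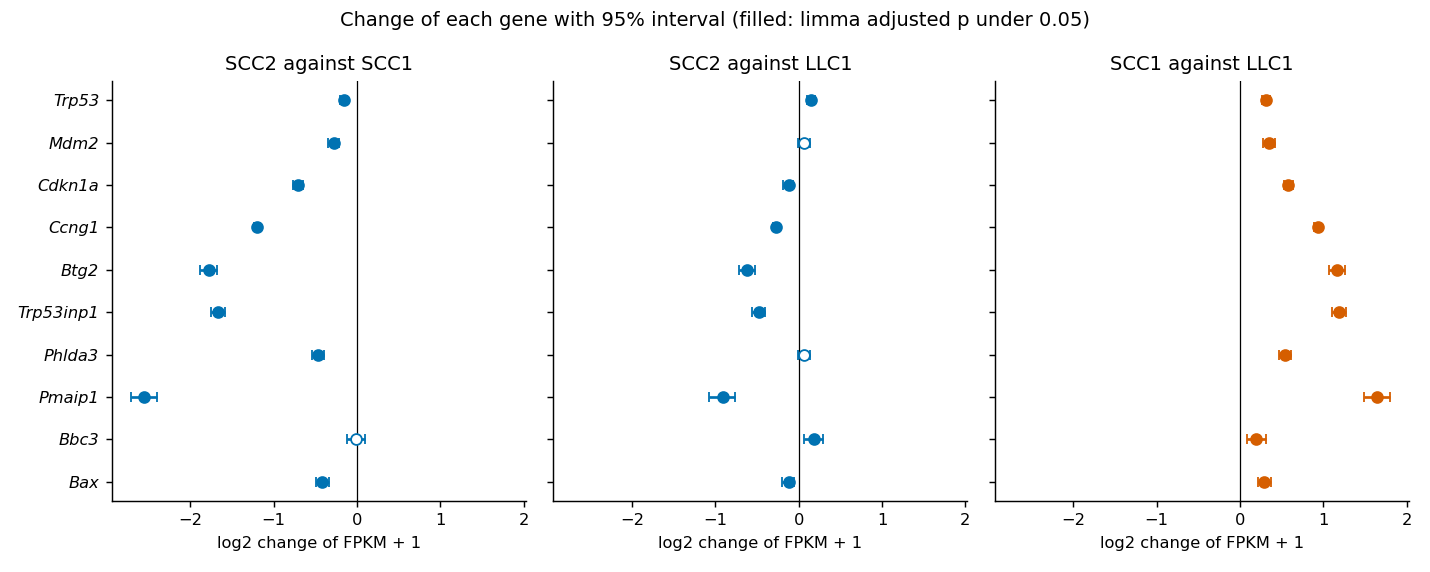
Change of each gene in log2(FPKM + 1) (horizontal axes) for SCC2 against SCC1, SCC2 against LLC1 and SCC1 against LLC1, with 95% intervals; filled points had a limma adjusted p under 0.05. In SCC2 against SCC1 the changes run from -2.56 for Pmaip1 to -0.01 for Bbc3.

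The spread among the targets can be set against Trp53 itself by dividing the FPKM of each by that of Trp53 in the same library. Ccng1 was at 0.533 to 0.536 of the Trp53 level in SCC2, 1.07 to 1.13 in SCC1 and 0.704 to 0.727 in LLC1. Pmaip1 was at 0.00478 to 0.00577 of it in SCC2, 0.06 to 0.0612 in SCC1 and 0.0166 to 0.0225 in LLC1. Mdm2 was at 0.111 to 0.123 in SCC2, 0.126 to 0.133 in SCC1 and 0.122 to 0.125 in LLC1, so that the SCC2 and LLC1 ranges overlapped. These ratios are of levels as deposited, with no chromosome shift removed.

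The chromosomes of the 10 genes had median changes of their own, which the plot of changes before and after their removal sets beside the genes. With the medians removed, Pmaip1, Btg2, Trp53inp1, Ccng1, Cdkn1a, Phlda3, Mdm2 and Bax kept their fall in SCC2 against SCC1, from -2.09 for Pmaip1 to -0.43 for Bax, and all 10 genes kept a rise in SCC1 against LLC1.

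**Figure D3:**
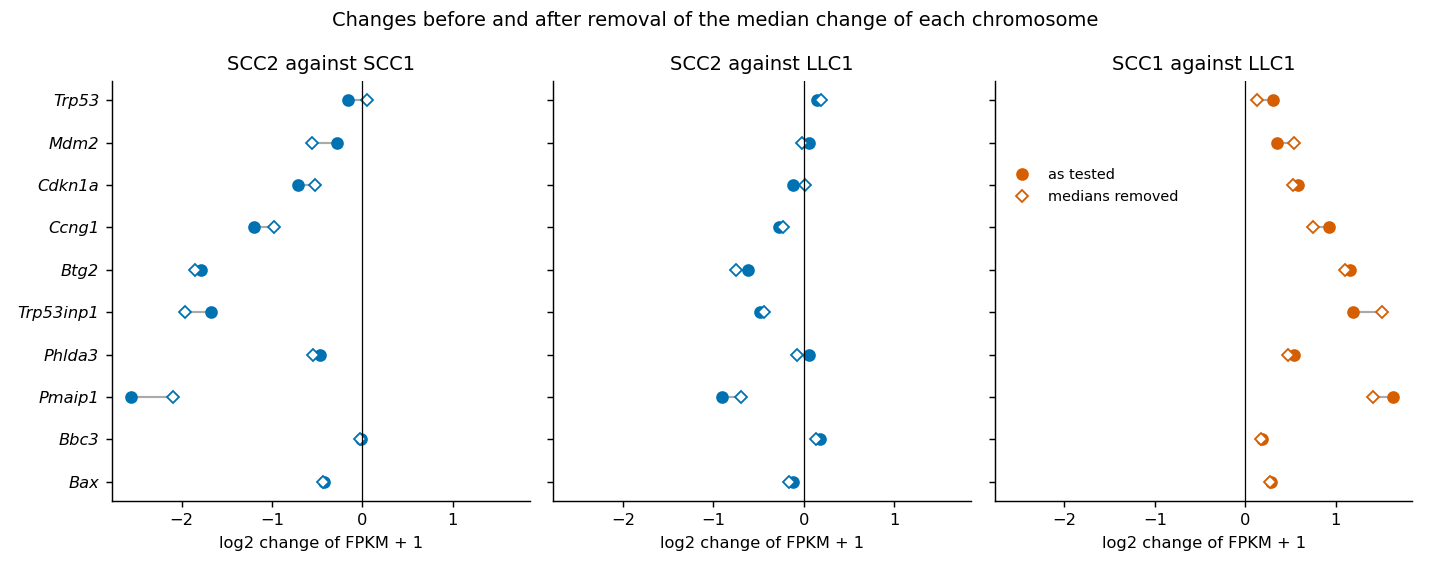
Change of each gene in log2(FPKM + 1) (horizontal axes) as tested (circles) and after the median change of all tested genes on its chromosome was removed (diamonds), in the 3 comparisons. Trp53 in SCC2 against SCC1 moves from -0.16 to 0.05, and Pmaip1 from -2.56 to -2.09.

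Other p53 targets moved both ways in each comparison. Of 54 further targets, 53 had values and 48 passed the filter; Fas, Perp, Gdf15, Dapk1 and Dram1 were under 1 FPKM and Sco2 was not analysed here. In SCC2 against SCC1, 11 rose (22.9%) and 31 fell (64.6%), with a median change of -0.292. In SCC2 against LLC1, 12 rose (25%) and 23 fell (47.9%), where 34.7% of all genes rose and 32.9% fell. The median there was -0.098, and 7 of these targets rose with chromosome medians removed. That setting called 58.8% of all genes in this comparison, against 67.6% without it. In SCC1 against LLC1, 29 rose (60.4%) and 9 fell (18.8%), with a median of 0.164, where 39.2% of all genes rose and 30.9% fell. By role, in SCC2 against SCC1, where 39.4% of all genes fell and 37% rose, 6 of 7 tested death genes fell and 0 rose, among them the nuclease Aen, at a mean of 9.9 FPKM in SCC2 and 16.3 FPKM in SCC1, and Siva1, at 48.0 FPKM in SCC2 and 77.9 FPKM in SCC1. Of 14 metabolic and redox genes 10 fell and 3 rose, the falls including the lipid transfer protein Pltp, at 14.3 FPKM in SCC2 and 28.5 FPKM in SCC1. Of 10 repair genes 5 fell and 1 rose, with the damage sensor Xpc at 4.19 FPKM in SCC2 and 7.11 FPKM in SCC1 (log2 change -0.64, and -0.4 with chromosome medians removed). Of 13 arrest and growth genes 8 fell and 5 rose, with Gtse1, which carries p53 out of the nucleus, at 35.6 FPKM in SCC2 and 69.1 FPKM in SCC1 (log2 change -0.94, and -0.51 with chromosome medians removed). Of 4 feedback genes 2 fell and 2 rose. Against the majority in SCC1 against LLC1 went Sesn1, a stress inhibitor of mTORC1, which fell, at 7.61 FPKM in SCC1 and 13.8 FPKM in LLC1 (log2 change -0.79, limma adjusted p 1.7e-08). Plk2, a kinase of the centriole cycle, also fell there (-0.24, adjusted p 0.00162) and fell further in SCC2 against LLC1 (-1.12, adjusted p 6.93e-09), at 2.36 FPKM in SCC2, 5.21 FPKM in SCC1 and 6.33 FPKM in LLC1.

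**Figure D4:**
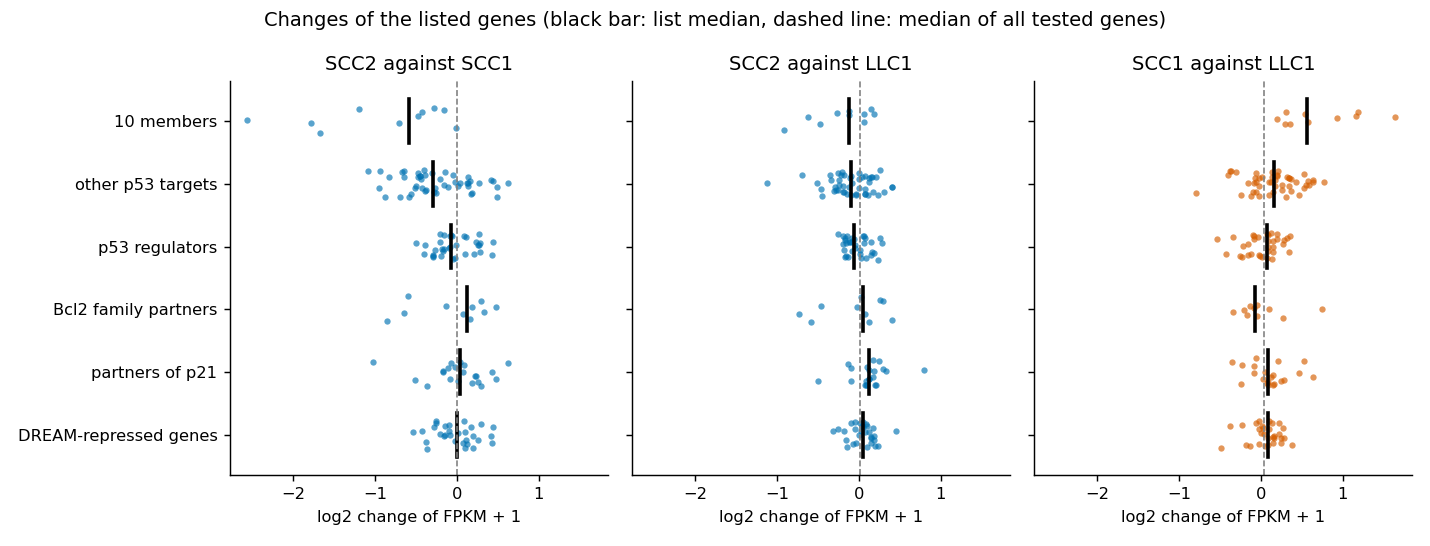
Change of each listed gene in log2(FPKM + 1) (horizontal axes) by list (vertical axis) in the 3 comparisons; points are genes, black bars are list medians and the dashed line is the median of all tested genes. The medians of the 10 genes lie at -0.589, -0.125 and 0.559, and those of the other lists lie nearer to the dashed line.

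Regulators of p53, ligases, deubiquitinases, acetylases and ribosomal proteins that bind Mdm2, moved both ways. Over all genes, 37% rose and 39.4% fell in SCC2 against SCC1 (median -0.003), 34.7% rose and 32.9% fell in SCC2 against LLC1 (median 0.008), and 39.2% rose and 30.9% fell in SCC1 against LLC1 (median 0.033). Of 34 regulators tested, 10 rose (29.4%) and 15 fell (44.1%) in SCC2 against SCC1 (median -0.073), 8 rose (23.5%) and 16 fell (47.1%) in SCC2 against LLC1 (median -0.056), and 15 rose (44.1%) and 11 fell (32.4%) in SCC1 against LLC1 (median 0.071). With chromosome medians removed, 4 rose in SCC2 against LLC1, and 9 rose and 7 fell in SCC1 against LLC1. That setting called 58.8% of all genes in SCC2 against LLC1 and 60.7% in SCC1 against LLC1, against 67.6% and 70.1% without it. The ubiquitin ligase Ube4b was at a mean of 30.7 FPKM in SCC2, 22.5 FPKM in SCC1 and 33.3 FPKM in LLC1, and its change in SCC2 against SCC1 was 0.43, or 0.14 with chromosome medians removed. The acetylase Ep300 was at 20.6 FPKM in SCC2 and 27.6 FPKM in SCC1 (log2 change -0.4). It lies on chromosome 15, whose median change there was -0.442, and with that removed its change was 0.03 (limma adjusted p 0.425). Of the p53 family, Trp63 was at or near 0 in every line, and Trp73 and Cdkn2a were not analysed here.

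The Bcl2 proteins with which Pmaip1, Bbc3 and Bax act went both ways. Of 10 tested, 6 rose (60%) and 3 fell (30%) in SCC2 against SCC1 (median 0.12), 3 rose (30%) and 3 fell (30%) in SCC2 against LLC1 (median 0.055), and 3 rose (30%) and 4 fell (40%) in SCC1 against LLC1 (median -0.07). Over all genes, 37% rose and 39.4% fell in SCC2 against SCC1, and 34.7% rose and 32.9% fell in SCC2 against LLC1. In SCC1 against LLC1, 39.2% of all genes rose and 30.9% fell. Without SCC2 replicate 3, 5 of the 10 Bcl2 genes rose in SCC2 against LLC1. Bcl2l1, the prosurvival Bcl-xL, was at a mean of 12.3 FPKM in SCC2, 23.1 FPKM in SCC1 and 19.0 FPKM in LLC1, and Bid, an activator of Bax, at 5.83 FPKM in SCC2, 9.73 FPKM in SCC1 and 5.45 FPKM in LLC1. Bcl2l1 and Bid were both called lower in SCC2 against SCC1, where the change of Bid was -0.65, or -0.41 with chromosome medians removed. Bad, among the 6 that rose there, averaged 25.3 FPKM in SCC2, 17.8 in SCC1 and 19 in LLC1. Its change in SCC2 against SCC1 was 0.48 (limma adjusted p 2.86e-06), or 0.31 with chromosome medians removed.

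Partners of p21, the cyclins, kinases and pocket proteins among them, and the cell cycle genes that p53 represses through the DREAM complex were counted in the same way. Over all genes, 37% rose and 39.4% fell in SCC2 against SCC1, and 34.7% rose and 32.9% fell in SCC2 against LLC1. In SCC1 against LLC1, 39.2% of all genes rose and 30.9% fell. Of 21 partners, 9 rose (42.9%) and 8 fell (38.1%) in SCC2 against SCC1 (median 0.04), 15 rose (71.4%) and 3 fell (14.3%) in SCC2 against LLC1 (median 0.122), and 12 rose (57.1%) and 6 fell (28.6%) in SCC1 against LLC1 (median 0.09), where 2 fell with chromosome medians removed. The kinases Cdk2, Cdk4 and Cdk1 averaged 26.6, 351 and 42.8 FPKM in SCC2, 18.8, 285 and 31.6 FPKM in SCC1 and 22.4, 304 and 37.2 FPKM in LLC1, and each was called higher in SCC2 and lower in SCC1 than in LLC1. All 3 lie on chromosome 10, whose median change was -0.195 in SCC1 against LLC1. With chromosome medians removed, their changes there were -0.05 for Cdk2 (limma adjusted p 0.198), 0.1 for Cdk4 (adjusted p 0.000323) and -0.04 for Cdk1 (adjusted p 0.21), so none was called lower, while in SCC2 against LLC1 they remained higher, by 0.15, 0.12 and 0.11. Cdk6, on chromosome 5, averaged 10.5 FPKM in SCC2, 10.4 in SCC1 and 9.69 in LLC1 and was called higher in both subclones than in LLC1, but in neither with chromosome medians removed (adjusted p 0.243 in SCC2 and 0.37 in SCC1). The cyclins were mixed: Ccnd2, itself a p53 target, averaged 33.6 FPKM in SCC2, 48.3 in SCC1 and 30.8 in LLC1, and Ccne2 13 FPKM in SCC2, 8.06 in SCC1 and 7.11 in LLC1. Ccnd1 averaged 187 FPKM in SCC2, 190.0 in SCC1 and 175 in LLC1, and Ccne1 11.7 FPKM in SCC2, 15.5 in SCC1 and 11 in LLC1. Ccnd1 was called higher in both subclones than in LLC1 and Ccne1 in SCC1 alone. Ccnd3 averaged 51 FPKM in SCC2, 43.8 in SCC1 and 46.8 in LLC1, and Ccna2 75.7 FPKM in SCC2, 63.1 in SCC1 and 66 in LLC1, both called higher in SCC2 and lower in SCC1 than in LLC1. The pocket protein gene Rb1 averaged 3.02 FPKM in SCC2, 7.2 in SCC1 and 4.67 in LLC1. Its change in SCC2 against SCC1 was -1.03 (limma adjusted p 3.59e-08), or -1.05 with chromosome medians removed. Of 30 DREAM genes, 13 rose (43.3%) and 14 fell (46.7%) in SCC2 against SCC1 (median 0.001), 14 rose (46.7%) and 7 fell (23.3%) in SCC2 against LLC1 (median 0.052), and 16 rose (53.3%) and 6 fell (20%) in SCC1 against LLC1 (median 0.09). With chromosome medians removed, 9 fell in SCC2 against SCC1, 4 fell in SCC2 against LLC1 and 9 rose in SCC1 against LLC1. That setting also lowered the share of all genes called. It went from 76.3% to 67.2% in SCC2 against SCC1 and from 67.6% to 58.8% in SCC2 against LLC1. In SCC1 against LLC1 it went from 70.1% to 60.7%.

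The genes whose levels followed Trp53 most closely over the 9 libraries were Mcoln1, Fkbp4 and Slc25a10, with Pearson correlations of 0.9898, 0.9897 and 0.9862 of log2(FPKM + 1). Those nearest to Cdkn1a were Shank2, Dagla and Sox9, at 0.9982, 0.9974 and 0.997. The libraries fall into 3 groups by line, so these values describe a shared order of the lines.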

How the data were processed

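RNA-seq of 9 libraries, 3 each of SCC2, SCC1 and LLC1, was used. The deposited FPKM values were made by the authors with Trimmomatic, hisat2 and cufflinks, per the series' design text, on GRCm38 (mm10), per the submitters' processing notes. The design text and the labels' protocols name different RNA and library kits. Total depth was recovered from the FPKM steps: all 12270 genes above 0 in every library gave whole fragments within 0.001, up to a factor common to a gene. Counting covers 17094808 to 19398657 fragments per library. Genes with at least 1 FPKM in at least 3 libraries (10519 of 15768) were tested on log2(FPKM + 1) with limma 3.58.1 (R 4.3.3; trend and robust options, 1 fit over all libraries, Benjamini-Hochberg adjusted p under 0.05), after a check on simulated data. Groups came from the labels. Alternatives were pseudocounts of 0.1 and 0.5, other filters, scalings and models, limma-voom on recovered fragments, chromosome medians removed and each library left out. Promoters and their motif search used Python 3.11.15 and RefSeq GRCm38.p6. No window of Pmaip1 or Trp53inp1 was searched, so their absence from the matches says nothing about their promoters. The motif spacer limit of 13 was the first used, and the limit of 1 was added after the matches had been seen. The text names all 10 genes, in each list up to 4 called genes with the smallest adjusted p per comparison, the cyclins and kinases of the p21 list, and the 3 genes most like Trp53 and Cdkn1a. The members and lists were chosen with earlier results of these data known.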

Additional observations from a re-analysis of the deposited data

Results flagged for a closer look

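Pmaip1, Btg2, Trp53inp1, Ccng1, Cdkn1a and Bax stood on opposite sides of LLC1 in the subclones, lower in SCC2 and higher in SCC1, each called in both comparisons, which share the LLC1 libraries. With chromosome medians removed, Cdkn1a was no longer lower in SCC2 than in LLC1 (0.01, limma adjusted p 0.868). A gene was listed only if it was also called in SCC2 against SCC1, so that call is no further support. The difference itself, SCC2 minus SCC1, was estimated in limma on log2(FPKM + 1). It was -2.56 for Pmaip1, -1.78 for Btg2 and -1.67 for Trp53inp1. It was -1.2 for Ccng1, -0.71 for Cdkn1a and -0.42 for Bax.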

How the results depend on the processing

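Of the counts of called genes under 20 alternatives, 709 stayed within 1.5 times and 11 moved; of the changes of the 10 genes, 587 kept direction and call, 8 reversed and 5 newly passed the threshold. With chromosome medians removed, 1 of the 10 genes rose in SCC2 against SCC1; 7 other targets rose in SCC2 against LLC1; 9 regulators rose and 7 fell in SCC1 against LLC1, and 4 rose in SCC2 against LLC1; 2 partners of p21 fell in SCC1 against LLC1; 9 DREAM genes rose in SCC1 against LLC1, 4 fell in SCC2 against LLC1 and 9 fell in SCC2 against SCC1. That setting also lowered the share of all genes called. It went from 76.3% to 67.2% in SCC2 against SCC1 and from 67.6% to 58.8% in SCC2 against LLC1. In SCC1 against LLC1 it went from 70.1% to 60.7%. The same setting turned Trp53 in SCC2 against SCC1 to 0.05, and Cdkn1a, Mdm2 and Phlda3 in SCC2 against LLC1 to 0.01, -0.02 and -0.07. In limma-voom 4 of the 10 genes rose in SCC2 against LLC1. Bbc3 in SCC2 against SCC1, never called, was 0.01 with quantile normalization and 0 with median-of-ratios scaling, and -0.04 to 0.02 with 1 library left out. With 1 library left out, 3 to 5 Bcl2 family partners rose in SCC2 against LLC1. A replicate block left the 10 genes at 10 higher in SCC1 against LLC1, 9 lower in SCC2 against SCC1, and 2 higher and 6 lower in SCC2 against LLC1, and called 7306 genes in SCC1 against LLC1; same-numbered libraries correlated at -0.068 to 0.089, so the numbers do not pair them. A motif spacer of at most 1, chosen after the matches had been seen, left 5 genes with a match. Their windows with a match went from 6 to 5 of 11, and the share of all windows from 15.6% to 2.82%. Depth limits Pmaip1 in SCC2, at 32 to 38 fragments. The cause of these shifts was not tested.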
